A study of Mus musculus with 12 samples.

Results

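Chondroitin sulfate is the sulfated sugar chain that aggrecan carries in cartilage, and 32 genes that build, sulfate or break it down were compared between TIMPless and WT sternal cartilage. They were taken by name, from a list made with earlier results of these data known. The list comprises 6 genes of chain synthesis, 8 sulfotransferases, 2 dermatan epimerases, 8 genes of precursor supply and 8 genes of breakdown. Of these, 30 had a probe set annotated for that gene alone, out of 22180 such genes on the array. Chpf2 and Chst15 lay only on probe sets shared with other genes and were not measured here. The TIMPless mice lack Timp1, Timp2, Timp3 and Timp4, the inhibitors of matrix metalloproteases, in the whole body (QT in the study), and the WT mice carry all 4 genes. According to the methods, Timp1 was inactivated by stop codons, and exons of the other 3 genes were removed. Both genotypes were untreated, of strain C57BL/6J and 4 wk old, with 6 mice each and 1 Affymetrix Mouse Gene ST array per mouse. Cartilage pads were cut from frozen sternums without the xiphoid process, so each array measured a bulk tissue. All values are log2 after robust multiarray average (RMA), and a difference is TIMPless minus WT on that scale.

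A chondroitin chain starts on a serine of a core protein, where a short linker of xylose, galactose and glucuronic acid is made first. N-acetylgalactosamine and glucuronic acid are then added in alternation in the Golgi, and sulfotransferases place sulfate at position 4 or 6 of the N-acetylgalactosamine. The dense negative charge of these chains draws water into cartilage, and inherited defects of several of the enzymes give skeletal dysplasias in humans. Lysosomal sulfatases and glycosidases remove the sulfates and sugars again.

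All 4 Timp genes gave lower values in TIMPless cartilage, with log2 differences of -1.66 for Timp4, -1.62 for Timp2, -1.27 for Timp3 and -0.87 for Timp1, the last with overlap between the genotypes. Whether the probes lie in the altered exons was not examined. Markers of the labelled tissue were bright, with Col2a1, the main collagen of cartilage, at 12.83 in TIMPless mice and 12.85 in WT mice. Markers of other tissues moved with genotype. The mean of 12 skeletal muscle markers was 8.02 to 8.99 in TIMPless mice and 9.04 to 10.54 in WT mice (7 of 12 lower), and that of 9 adipocyte markers was 7.85 to 8.54 in TIMPless mice and 8.67 to 9.69 in WT mice (6 of 9 lower). The mean of 7 osteoblast and osteocyte markers was 9.26 to 9.57 in TIMPless mice and 8.26 to 9.28 in WT mice (2 higher). The mean of 10 cartilage markers was 11.00 to 11.39 in TIMPless mice and 11.30 to 11.67 in WT mice. Of these, 2 were called lower, Comp by -0.52 without overlap and Snorc by -0.365. Col2a1 had a smaller difference than these, and the means of 8 of the 10 were lower and of 2 higher. Of 6 hypertrophic chondrocyte markers, 2 were lower in TIMPless mice, Ihh by a log2 difference of -1.11 and Panx3 by -0.80, both without overlap. The means of 3 of the 6 were lower and of 3 higher. Ibsp was higher without overlap (difference 0.22, limma adjusted p = 0.0536), and Mmp13 had a difference of 0.37 (adjusted p = 0.202). The mean of this list was 11.10 to 11.30 in TIMPless mice and 11.17 to 11.66 in WT mice. Of 7 fibroblast and tendon markers, Fmod was lower (difference -0.31), with list means of 9.77 to 10.58 in TIMPless mice and 10.15 to 10.71 in WT mice. Of 9 neutrophil, 8 macrophage, 5 endothelial and 5 keratinocyte markers none passed limma's adjusted threshold, and 3, 2, 1 and 1 of them had an unadjusted p under 0.05. Of the keratinocyte markers, Krt14, Krt1 and Dsg3 lay under every array's median. In bulk tissue, fewer cells of a type cannot be told apart from less RNA per cell. By Xist and the Y-linked Eif2s3y, WT replicates 5 and 6 differed from the other 10 mice. Xist was 5.17 to 5.34 against 11.91 to 12.22, and Eif2s3y was 9.06 to 9.20 against 3.50 to 3.99. The other 10 include every TIMPless mouse, so this split was not balanced between genotypes. Sex is not given in the labels.

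Of the 30 measured genes, 2 passed an adjusted p under 0.05 in limma's moderated test, with Chsy1 higher and Chst12 lower in TIMPless cartilage. Over all genes with their own probe set, 4.93% passed, 1.69% as higher and 3.24% as lower, so the members' share was near that of all genes. Only Chsy1 also reached a 1.5-fold change, which 2.3% of all genes did with an adjusted p under 0.05. An unadjusted p under 0.05 was found for 8 members, 3 higher and 5 lower, beside 20.5% of all genes. The 6 TIMPless and 6 WT values did not overlap for 4 members, Chsy1 and Ugdh with higher values and Chst12 and Idua with lower ones, where 1.9% of all genes lay wholly higher and 3.02% wholly lower. The median difference of the 30 genes was -0.04, beside 0.00 for all genes, and their median absolute difference was 0.14, beside 0.11. In 27 members the 95% interval of the difference lay within 1.5-fold in either direction, with Chsy1, Chst3 and Galns as the exceptions. The SD among TIMPless mice had a median over members of 0.19, against 0.17 among WT mice, and was the larger in TIMPless mice for 20 genes.

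**Figure D1:**
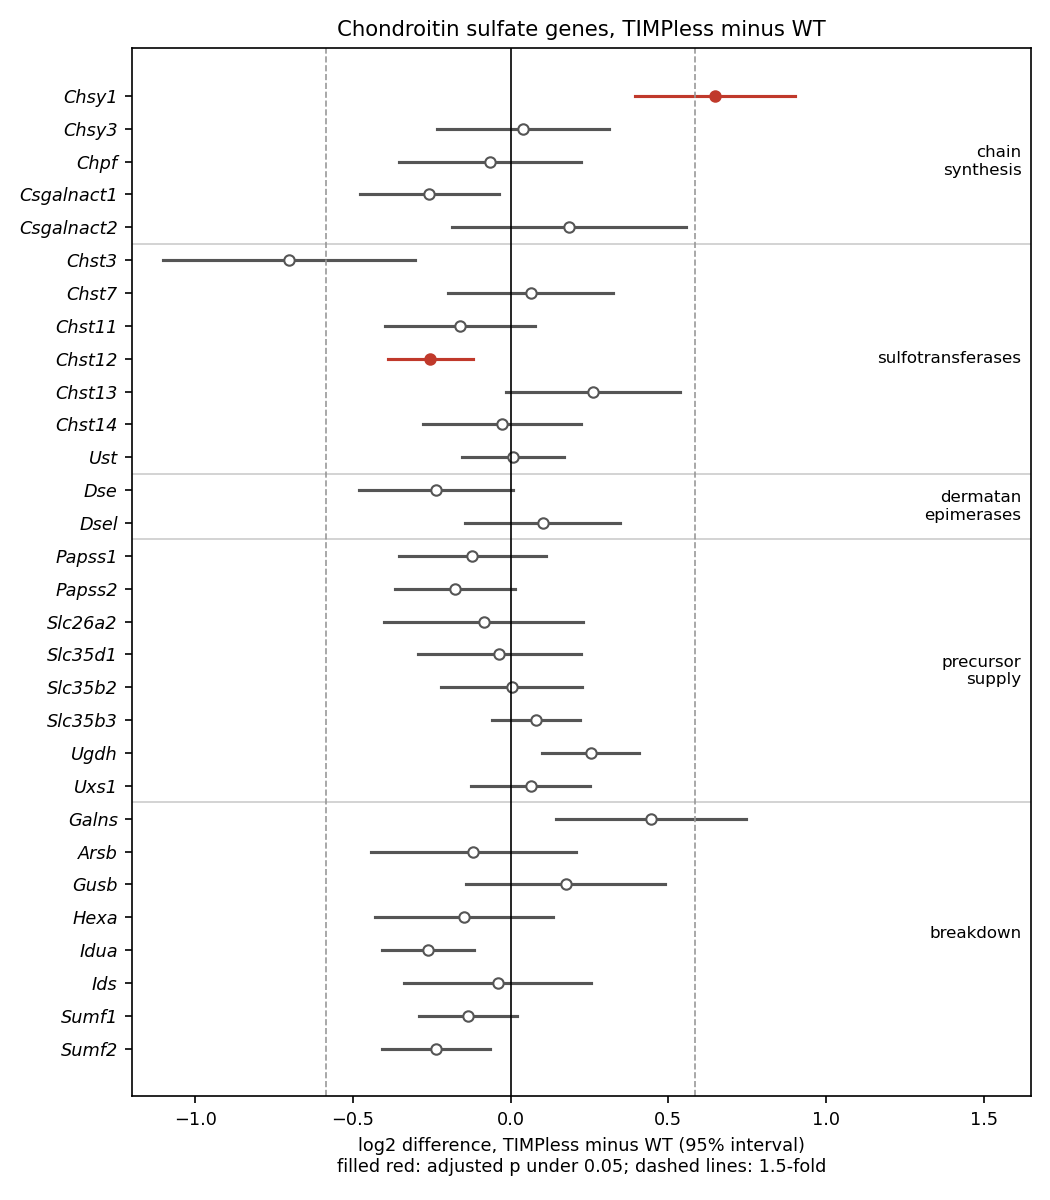
Log2 difference, TIMPless minus WT, of the 30 measured genes on the x axis, grouped by role down the page, with points for the difference and bars for limma's 95% interval (n = 6 mice each). Filled red marks Chsy1 (0.65) and Chst12 (-0.26), the genes with an adjusted p under 0.05, and most other intervals cross 0 and stay between the dashed lines at 1.5-fold.

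The promoters of the genes that passed are shown, and both carry the same GC-rich letters upstream of the start. The sequences are the 250 bases before the RefSeq transcription start on build GRCm38.p6, both on the plus strand, at chr7:66109242-66109491 for Chsy1 and chr5:140505359-140505608 for Chst12. Capitals mark matches on either strand to the Sp1 GC box (GGGCGG) and, in Chsy1 alone, to the cyclic AMP response element core (TGACGT).
Chsy1: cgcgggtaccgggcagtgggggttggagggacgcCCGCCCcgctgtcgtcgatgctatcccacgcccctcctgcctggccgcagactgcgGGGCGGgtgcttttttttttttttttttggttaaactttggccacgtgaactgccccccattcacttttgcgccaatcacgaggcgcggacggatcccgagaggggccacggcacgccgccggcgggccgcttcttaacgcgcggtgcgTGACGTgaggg
Chst12: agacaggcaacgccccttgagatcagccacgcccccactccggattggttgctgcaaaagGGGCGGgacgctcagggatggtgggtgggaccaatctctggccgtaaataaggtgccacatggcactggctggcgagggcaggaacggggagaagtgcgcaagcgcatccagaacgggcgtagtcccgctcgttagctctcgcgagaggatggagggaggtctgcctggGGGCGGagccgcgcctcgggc
Each window was 65.6% G or C, where the median over all promoters was 52.4%. Chsy1 held GC boxes at bases -216 to -211 and -160 to -155 and TGACGT at -11 to -6, counted back from the start. Chst12 held GC boxes at -190 to -185 and -21 to -16. A GC box stood in any window of 21 of the 28 member genes that had a promoter entry, so both genes share it with most of these members. Counted by window and not by gene, it stood in 32.7% of all 32851 windows of that length. TGACGT stood in 3 of the 28 genes and, counted by window, in 6.47% of all windows. Neither window held the TATA box (TATAAA, 12.4% of windows), the SOX core (AACAAT, 9.42%), the AP-1 site (TGANTCA, 6.75%) or the GLI site (GACCACCCA, 0.225%), which says only that these letters are not in these 250 bases.

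Among the genes of chain synthesis, Chsy1 was higher in TIMPless cartilage and the other measured genes were not called. Chsy1 encodes a chondroitin synthase that adds both sugars of the repeat, and its loss in humans causes a brachydactyly syndrome. Its value was 10.36, 10.64 and 11.07 in TIMPless mice and 9.91, 9.97 and 10.18 in WT mice (lowest, median and highest). Every TIMPless mouse lay above every WT mouse. The means were 10.67 ± 0.27 in TIMPless mice and 10.02 ± 0.12 in WT mice (SD, n = 6 each), a difference of 0.65 with a standard error of 0.12, or 1.57-fold (limma adjusted p = 0.00927). A second, dimmer probe set of Chsy1 averaged 7.13 in TIMPless mice and 6.48 in WT mice, again a difference of 0.65 without overlap (adjusted p = 0.021). Among 22180 genes, 333 had a larger rise than Chsy1. The call was kept under each of the 9 other settings run for this gene and without each mouse in turn, where the difference was 0.57 to 0.71.

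Chsy3, a synthase of the same activity, averaged 8.94 ± 0.28 in TIMPless mice and 8.90 ± 0.16 in WT mice, a difference of 0.04 with a 95% interval of -0.23 to 0.31. Chpf, the polymerizing factor that works in complex with the synthases, averaged 8.04 in TIMPless mice and 8.11 in WT mice, with an interval of -0.36 to 0.22. Csgalnact1 adds the first N-acetylgalactosamine that commits the linker to chondroitin. It averaged 8.02 ± 0.19 in TIMPless mice and 8.28 ± 0.17 in WT mice, a difference of -0.26 (adjusted p = 0.21). Csgalnact2, with the same activity, averaged 9.65 ± 0.40 in TIMPless mice and 9.47 ± 0.22 in WT mice (difference 0.18, adjusted p = 0.622). The 2 genes thus had differences of opposite sign that did not pass the test.

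**Figure D2:**
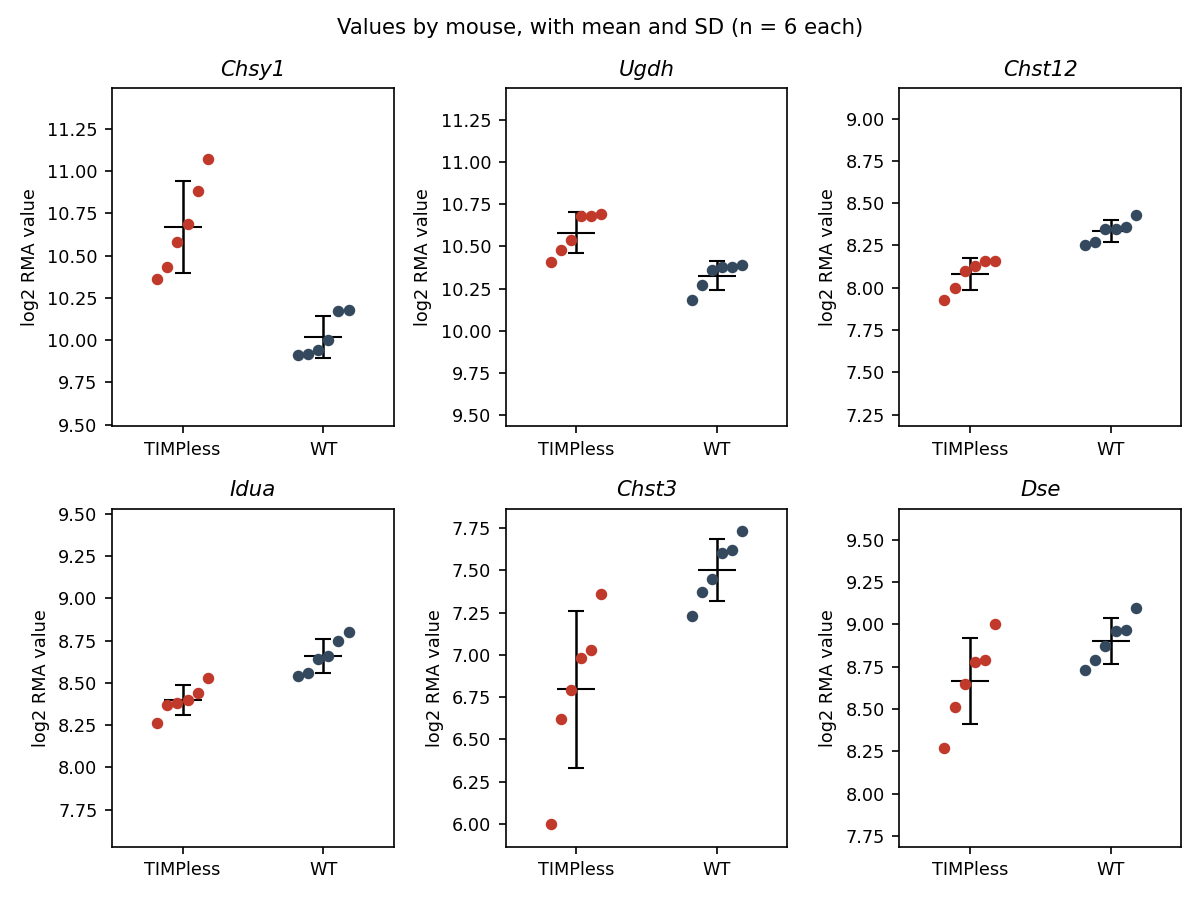
Log2 RMA value of each mouse on the y axis for 6 genes, TIMPless on the left and WT on the right of each panel, with the mean and SD as bars (n = 6 each) and the same span of 2 log2 units in every panel. The genotypes do not overlap for Chsy1, Ugdh, Chst12 and Idua, whereas the highest TIMPless value of Chst3 (7.36) and that of Dse lie within the WT range.

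Of the 7 measured sulfotransferases, 1 passed the test, Chst12, which was lower in TIMPless cartilage. The means of 4 were lower and of 3 higher. Chst12 encodes a chondroitin 4-sulfotransferase. Its value was 7.93, 8.12 and 8.16 in TIMPless mice and 8.25, 8.35 and 8.43 in WT mice (lowest, median and highest). No TIMPless mouse reached the lowest WT mouse. The means were 8.08 ± 0.09 in TIMPless mice and 8.34 ± 0.07 in WT mice (SD, n = 6 each), a difference of -0.26 with a standard error of 0.06, so that WT was 1.19-fold higher (limma adjusted p = 0.0435). The spread within each genotype was among the smaller ones of the 30 genes, and 2367 of 22180 genes had a larger fall. The call was lost whichever mouse was left out (adjusted p = 0.0522 to 0.0889). It was also lost without WT replicates 5 and 6 together (adjusted p = 0.149), with array weights (0.0598) and with a block for replicate number (0.17).

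Chst3, the main chondroitin 6-sulfotransferase, whose loss in humans causes a spondyloepiphyseal dysplasia, had the most negative difference of the 30 genes. Its value was 6.00, 6.89 and 7.36 in TIMPless mice and 7.23, 7.53 and 7.73 in WT mice. Of the 6 TIMPless mice, 5 lay below the lowest WT mouse, and the highest reached into the WT range. The means were 6.80 ± 0.46 in TIMPless mice and 7.50 ± 0.18 in WT mice, a difference of -0.70 with a 95% interval of -1.10 to -0.30 (adjusted p = 0.0573). The SD of 0.46 was the highest of any member in TIMPless mice. Chst3 passed when dim probe sets were left out before the test (adjusted p = 0.0312), with Storey's q value (0.0398) and without TIMPless replicate 2 (0.0274), and it did not pass under the other settings.

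Chst11, the chondroitin 4-sulfotransferase that mouse cartilage depends on, averaged 11.83 ± 0.22 in TIMPless mice and 11.99 ± 0.16 in WT mice, a difference of -0.16 with an interval of -0.40 to 0.08. Chst13, a further 4-sulfotransferase, averaged 7.17 ± 0.22 in TIMPless mice and 6.91 ± 0.25 in WT mice (difference 0.26, adjusted p = 0.32). The 3 genes of chondroitin 4-sulfotransferases therefore had differences of both signs. Chst7, a second 6-sulfotransferase, averaged 5.06 in TIMPless mice and 5.00 in WT mice, under every array's median of 6.15 to 6.20, so a change of this gene may not have been measurable. Chst14, which sulfates dermatan at position 4, averaged 8.32 in TIMPless mice and 8.35 in WT mice (interval -0.28 to 0.22). Ust, which sulfates the uronic acid at position 2, averaged 8.46 in TIMPless mice and 8.45 in WT mice (interval -0.16 to 0.17).

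The dermatan epimerases turn glucuronic acid of the chain into iduronic acid, and neither was called or had an unadjusted p under 0.05 in limma. Dse had a lowest value of 8.27 and a median of 8.72 in TIMPless mice, against 8.73 and 8.92 in WT mice, whose highest value was 9.10. The highest TIMPless mice lay inside the WT range. The means of Dse were 8.67 ± 0.25 in TIMPless mice and 8.90 ± 0.13 in WT mice, a difference of -0.24 (limma adjusted p = 0.31). Dsel, its paralog, averaged 8.65 ± 0.27 in TIMPless mice and 8.54 ± 0.10 in WT mice, a difference of 0.10 (adjusted p = 0.691).

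Of the 8 genes that supply sugar and sulfate to the Golgi, none passed, and Ugdh was the only one without overlap and the only one with an unadjusted p under 0.05 in limma. Ugdh makes UDP-glucuronic acid, the donor of one sugar of the repeat. Its value was 10.41, 10.61 and 10.69 in TIMPless mice and 10.18, 10.37 and 10.39 in WT mice. Every TIMPless mouse lay above every WT mouse, by a gap of 0.02 at the nearest pair. The means were 10.58 ± 0.12 in TIMPless mice and 10.33 ± 0.08 in WT mice, a difference of 0.25 with a 95% interval of 0.10 to 0.41 (limma adjusted p = 0.0732). Ugdh passed with the dim probe sets left out (adjusted p = 0.0335), with a trended and robust variance (0.0432) and with array weights (0.043).

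Uxs1 turns the product of Ugdh into UDP-xylose, the donor of the linker's first sugar, and averaged 9.20 in TIMPless mice and 9.14 in WT mice (adjusted p = 0.753). Slc35d1 carries UDP-glucuronic acid and UDP-N-acetylgalactosamine across internal membranes, and its loss in mouse and human gives a severe chondrodysplasia. It averaged 8.65 in TIMPless mice and 8.69 in WT mice, with an interval of -0.29 to 0.22. Papss2 makes the sulfate donor PAPS in cartilage and averaged 11.98 ± 0.17 in TIMPless mice and 12.15 ± 0.11 in WT mice, a difference of -0.18 (adjusted p = 0.327). Papss1, its paralog, averaged 7.80 in TIMPless mice and 7.92 in WT mice (adjusted p = 0.604). Slc26a2 imports sulfate into chondrocytes and is the gene of diastrophic dysplasia. It averaged 9.76 ± 0.23 in TIMPless mice and 9.85 ± 0.31 in WT mice, with an interval of -0.40 to 0.23. The Golgi carriers of PAPS had small differences as well, with Slc35b2 at 7.97 in both genotypes (interval -0.22 to 0.23) and Slc35b3 at 7.23 in TIMPless mice and 7.15 in WT mice (interval -0.06 to 0.22). For the sulfate route as a whole, no interval reached a 1.5-fold change.

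Of the 8 breakdown genes, 6 had a lower and 2 a higher mean in TIMPless cartilage, and none passed the adjusted threshold. In limma 3 of them had an unadjusted p under 0.05 (Galns, Idua and Sumf2). Idua encodes the lysosomal enzyme that removes iduronic acid from dermatan sulfate and heparan sulfate. Its value was 8.26, 8.39 and 8.53 in TIMPless mice and 8.54, 8.65 and 8.80 in WT mice. The genotypes did not overlap, with 0.01 between the nearest mice. The means were 8.40 ± 0.09 in TIMPless mice and 8.66 ± 0.10 in WT mice, a difference of -0.26 with a 95% interval of -0.41 to -0.12 (limma adjusted p = 0.0538). Idua passed under 4 of 8 other settings, with an adjusted p of 0.0234 to 0.157 over these.

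Galns, the sulfatase that removes 6-sulfate and is deficient in Morquio syndrome, had the largest positive difference after Chsy1. Its value was 7.75, 7.96 and 8.20 in TIMPless mice and 7.05, 7.59 and 7.86 in WT mice. Of the 6 TIMPless mice, 4 lay above the highest WT mouse. The means were 7.96 ± 0.18 in TIMPless mice and 7.51 ± 0.32 in WT mice, a difference with a 95% interval of 0.14 to 0.75 (adjusted p = 0.11). Its WT range rests in part on WT replicate 1, without which the difference was 0.35. Arsb, which removes 4-sulfate, averaged 10.37 ± 0.19 in TIMPless mice and 10.49 ± 0.35 in WT mice (difference -0.12, adjusted p = 0.732), and its second probe set had a difference of -0.03.

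Gusb, which removes glucuronic acid, averaged 9.01 in TIMPless mice and 8.83 in WT mice (adjusted p = 0.579). Hexa, the alpha subunit of a hexosaminidase, averaged 10.93 in TIMPless mice and 11.07 in WT mice (adjusted p = 0.602). Ids, which removes the sulfate of iduronic acid, averaged 9.62 ± 0.28 in TIMPless mice and 9.66 ± 0.23 in WT mice (adjusted p = 0.91). Sumf1 activates every sulfatase of this route by forming the formylglycine of the active site, so it acts upstream of Galns, Arsb and Ids. It averaged 7.43 ± 0.12 in TIMPless mice and 7.57 ± 0.09 in WT mice (difference -0.14, adjusted p = 0.358). Sumf2, a paralog without that activity, averaged 8.21 ± 0.13 in TIMPless mice and 8.45 ± 0.12 in WT mice (difference -0.24, adjusted p = 0.135).

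The extreme values of a genotype often fell to the same mouse, as the map of deviations by mouse shows. TIMPless replicate 1 had the lowest value of its genotype in 12 of the 22 genes of synthesis and supply, and the highest in 6 of the 8 breakdown genes (Galns, Arsb, Gusb, Hexa, Idua and Sumf1). This mouse also had the highest macrophage mean (10.05) and the lowest cartilage mean (11.00) of the TIMPless mice. TIMPless replicate 2 was the highest of its genotype in 12 of the 22. WT replicate 1 was the lowest of its genotype in 11 of the 22 and in 5 of the 8 (Galns, Arsb, Gusb, Hexa and Sumf2), and had the lowest WT means of the macrophage (9.40), osteoblast and osteocyte (8.26), neutrophil (8.83), hypertrophic (11.17), erythroid and endothelial markers. WT replicate 6 was the highest in 8 of the 22 and in 5 of the 8, with a macrophage mean of 9.61, inside the WT range of 9.40 to 9.84. It had the highest WT means of the cartilage (11.67), hypertrophic (11.66), osteoblast and osteocyte (9.28) and endothelial markers (9.28). Its adipocyte (8.67) and keratinocyte means (5.65) were the lowest of the WT mice. The part of any of these cell types in these values was not tested.

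**Figure D3:**
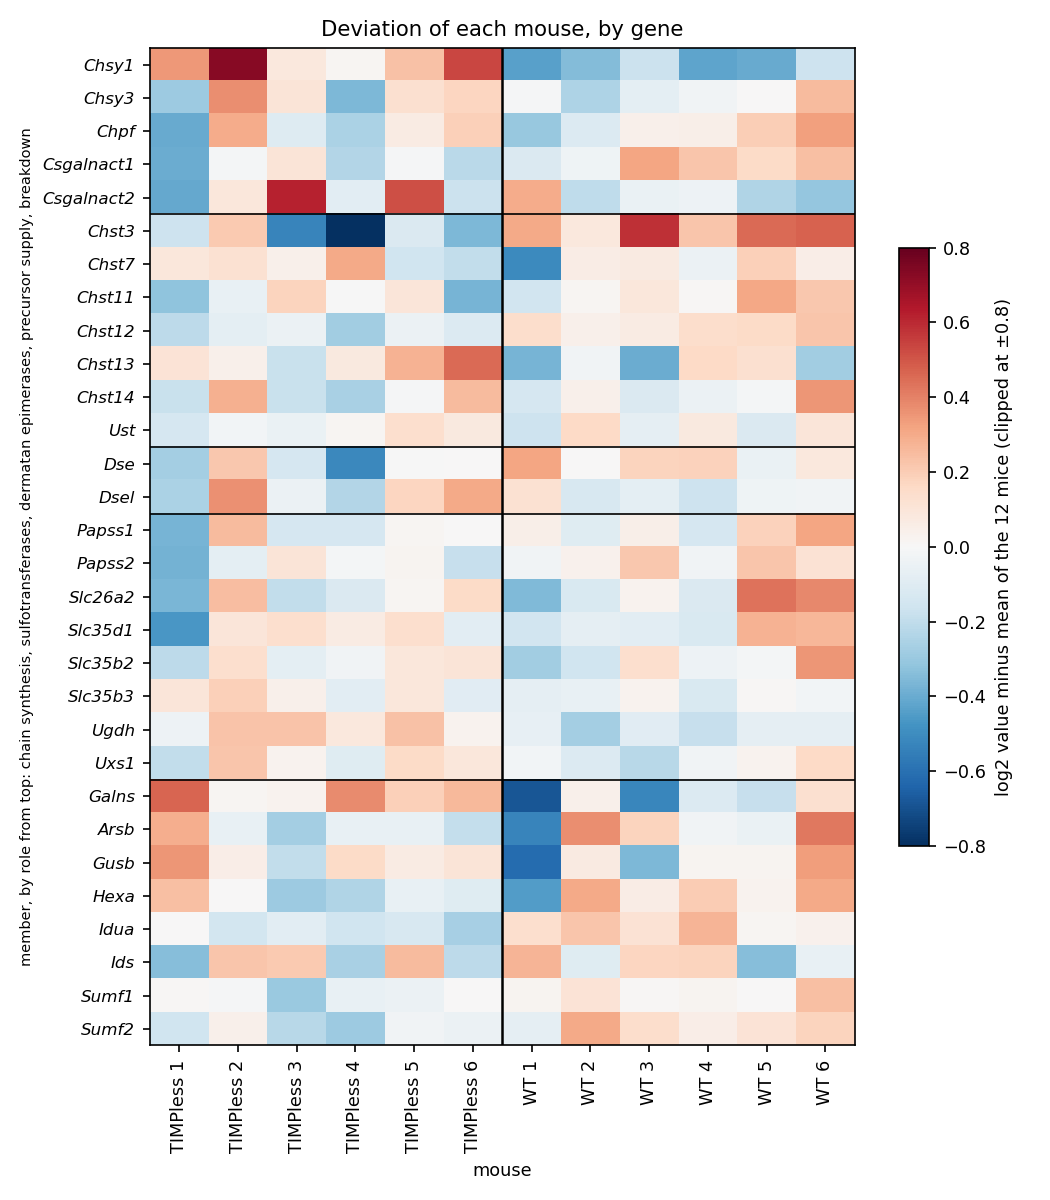
Log2 value minus the mean of the 12 mice for each of the 30 genes (rows, by role from top to bottom), with TIMPless mice in the left columns and WT mice in the right ones, red for above and blue for below the mean. Colours stop at 0.8 either way, which hides the full depth of Chst3 in TIMPless replicate 4 (6.00). TIMPless replicate 1 is blue over most of synthesis and supply. In breakdown it is red for Galns, Arsb, Gusb and Hexa, near the mean for Idua and Sumf1, and blue for Ids and Sumf2.

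In a comparison that was not planned, Chsy1 ran in the same order as the endothelial marker mean among the TIMPless mice, apart from a tie. Replicate 2 had the highest values of both (Chsy1 11.07, endothelial mean 9.80), and replicates 3 and 4 had the lowest (Chsy1 10.43 and 10.36, endothelial mean 9.03 in each). The endothelial list was not alone in this, since the fibroblast and tendon mean was also highest in TIMPless replicate 2 (10.58) and lowest in replicate 4 (9.77). The WT mice did not share one order, although WT replicate 6 was highest and WT replicate 1 lowest in both. WT replicate 3 had a Chsy1 value of 10.17 and an endothelial mean of 9.06, and WT replicate 5 had 9.94 and 9.23. The means of the 5 endothelial markers overlapped between genotypes, at 9.03 to 9.80 in TIMPless mice and 8.98 to 9.28 in WT mice, and all 5 had a higher mean in TIMPless mice without passing. The muscle and adipocyte means did not overlap between genotypes. The part of endothelial, muscle, adipocyte or other cells in the differences of Chsy1, Chst12, Chst3, Ugdh and Idua was not tested.

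**Figure D4:**
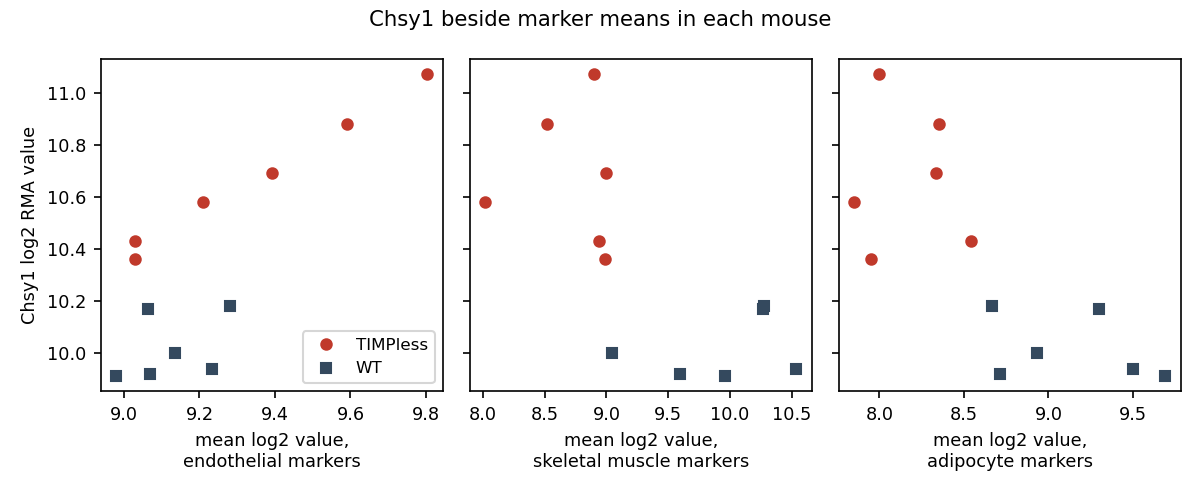
Log2 RMA value of Chsy1 on the y axis against the mean log2 value of the endothelial, skeletal muscle and adipocyte markers on the x axes, 1 point per mouse, TIMPless as red circles and WT as dark squares. All TIMPless points lie above all WT points in Chsy1, the endothelial means overlap between genotypes (9.03 to 9.80 in TIMPless, 8.98 to 9.28 in WT), and the muscle and adipocyte means do not.

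In the rest of the pathway, 36 genes were compared, and 1 was higher and 2 were lower in TIMPless cartilage, beside 1.69% of all genes called higher and 3.24% called lower. These lists were chosen by role, with earlier results of these data known. None of the 7 linkage region genes and none of the 10 sugar nucleotide and Golgi factors passed, and 3 and 1 of them had an unadjusted p under 0.05 in limma, beside 20.5% of all genes. Fam20b, the kinase that phosphorylates the linker xylose, came closest, with a difference of -0.34 and no overlap (limma adjusted p = 0.0549). Of the 14 core proteins, 1 was higher and 1 lower. The mRNA of aggrecan (Acan), the main carrier of the chains, averaged 12.57 ± 0.17 in TIMPless mice and 12.61 ± 0.12 in WT mice. Its interval was -0.23 to 0.15, so this mRNA differed by little. Aggrecan protein and its cleavage were not measured on these arrays.

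Vcan encodes versican, a large chondroitin sulfate proteoglycan of loose and developing tissue. Its value was 9.16, 9.78 and 10.86 in TIMPless mice and 10.70, 11.00 and 11.26 in WT mice. The highest TIMPless mouse lay above the lowest WT mouse, and the remaining TIMPless mice lay lower. The means were 9.87 ± 0.59 in TIMPless mice and 10.98 ± 0.24 in WT mice, a difference of -1.11 (limma adjusted p = 0.0213). The call was lost without TIMPless replicate 4 or WT replicate 3 (adjusted p up to 0.0531). It was also lost with array weights (0.0512) and with a block for replicate number (0.0962). Ptprz1 encodes a receptor phosphatase that carries chondroitin sulfate. Its value was 9.07, 9.18 and 9.36 in TIMPless mice and 7.51, 8.54 and 8.81 in WT mice, without overlap. The difference was 0.78 (adjusted p = 0.0294), and WT replicate 1, the lowest mouse, set part of it, since the difference was 0.60 without that mouse. The call was lost without TIMPless replicate 1, 4, 5 or 6 or WT replicate 3 or 4 (adjusted p up to 0.0624). It was also lost without WT replicates 5 and 6 together (0.069) and with a block for replicate number (0.11).

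Of the 5 other breakdown genes, Hyal2 was lower. It encodes a hyaluronidase, and its value was 7.73, 7.99 and 8.29 in TIMPless mice and 8.16, 8.58 and 8.72 in WT mice. The genotypes overlapped between 8.16 and 8.29. The difference was -0.53 (limma adjusted p = 0.023), and the call was lost without TIMPless replicate 4 or WT replicate 3, 4 or 6 (adjusted p up to 0.053). It was also lost without WT replicates 5 and 6 together (0.0833) and with a block for replicate number (0.0765). Cemip, which takes part in hyaluronan breakdown, had a difference of -0.61 that did not pass (adjusted p = 0.0669).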

How the data were processed

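RNA of sternal cartilage pads from 6 TIMPless and 6 WT mice was measured on 1 Affymetrix Mouse Gene ST array per mouse. The deposited log2 values are the authors' robust multiarray averages (RMA), computed with Partek (version 6.6 per the submitters' processing notes). RMA subtracts background, gives all arrays one distribution and summarizes probes, so a shift shared by most genes would not be seen. A genome build for the annotation was not given in the sources used here. Precision is limited by the number of arrays.

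The platform annotation named 23521 of 41345 probe sets for 1 gene, 1820 for several and 16004 for none. For a gene with more than 1, the probe set with the highest mean was used. A linear model with genotype alone was fitted to every probe set with limma's lmFit and eBayes (version 3.58.1, R 4.3.3, 10 residual and 2.93 prior degrees of freedom). Benjamini-Hochberg adjustment ran over the 41345 p-values, and the 95% intervals use the moderated errors. The script was tested on simulated data first. The labels call the mice of each genotype biological replicates.

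Genes were described in full where the adjusted p was under 0.05 or the genotypes did not overlap, and otherwise for the member of a role group with the lowest adjusted p. Chst3 and Galns were also given in full, chosen after their values were seen. The members, gene lists and marker lists were chosen with earlier results of these data known. Promoter sequences are from RefSeq on GRCm38.p6 and matched 28 of 32 members by symbol, and each motif was searched on both strands in the 250 bases upstream. Alternatives were array centring, cyclic loess, a filter on dim probe sets, a trended and robust variance, array weights, Storey's q value, a replicate block, the mean of a gene's probe sets, and leaving out WT replicates 5 and 6 or each mouse in turn.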

Additional observations from a re-analysis of the deposited data

Results flagged for a closer look

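Of 74 sets of 6 mice examined, 6 held a mouse that stood apart by Dixon's criterion, which chance alone gives in about 1 of 20 sets. WT replicate 1 stood apart in 3 of them. Its Hexa value was 10.55, where the other WT mice had 11.03 to 11.30. Its Chst7 value was 4.52, where the others had 4.98 to 5.22, and its Ptprz1 value was 7.51, where the others had 8.46 to 8.81. WT replicate 6 had the highest Chst14 value, 8.69, where the others had 8.20 to 8.38. Among TIMPless mice, replicate 1 had a Slc35d1 value of 8.21, where the others had 8.59 to 8.81, and replicate 3 had a Sumf1 value of 7.20, where the others had 7.44 to 7.51. Of these genes only Ptprz1 passed the test between genotypes.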

How the results depend on the processing

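Chsy1 passed under every alternative run (adjusted p = 0.00453 to 0.0405). Without 1 mouse, 1 to 2 members passed (1 higher, 0 to 1 lower), 1 of them with 1.5-fold, and the members' median difference was -0.09 to 0.01. The dim filter gave 5 members (2 higher, 3 lower), 2 with 1.5-fold, and 5 other pathway genes. Trended and robust variance gave 4 members (2 higher, 2 lower). Array weights gave 3 members (2 higher, 1 lower), with Idua and not Chst12 as the lower one. Storey's q value gave 4 members (3 lower), 2 with 1.5-fold, and 5 other pathway genes. The replicate block gave 1 member (0 lower), 0 other pathway genes, and 545 probe sets, 423 with 1.5-fold, against 1449 and 665 without it. Same-numbered mice did not pair (correlation of their deviations -0.21 to -0.01), and with the block Chst12 had an adjusted p of 0.17. Without WT replicates 5 and 6, 1 member passed (0 lower), with 1 other pathway gene and 926 probe sets. Timp1 was then lost (adjusted p = 0.114), and without TIMPless replicate 4 or WT replicate 2, 3, 4, 5 or 6 alone (up to 0.0624). Leaving out 1 mouse gave 888 to 1230 probe sets, 515 to 664 with 1.5-fold, and 0 to 5 other pathway genes. The cause of these shifts was not tested.

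Small uncalled differences changed sign. Without WT replicates 5 and 6 they were 0.0483 for Chpf, 0.0508 for Chst14, 0.10 for Slc26a2 and 0.09 for Slc35d1, and with array weights -0.0047 for Chst7 and 0.0201 for Ids. Without 1 mouse they spanned -0.13 to 0.007 for Chpf, -0.086 to 0.0413 for Chst14, -0.0323 to 0.11 for Chst7, -0.03 to 0.12 for Chsy3, -0.11 to 0.022 for Ids, -0.052 to 0.074 for Slc35b2, -0.071 to 0.0523 for Slc35d1 and -0.0253 to 0.0387 for Ust. Chst7 lay under the array medians, where a change may not have been measurable.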
